A study of Caenorhabditis elegans with 2 samples.

Results

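The 9 genes described here decide sex and equalise X-linked expression in Caenorhabditis elegans, and their surroundings were searched for chromatin recovered with a tagged nuclear hormone receptor, NHR-129. They are the switch gene xol-1, the X-linked signal genes sex-1 and fox-1, the genes sdc-1, sdc-2 and sdc-3, the dosage compensation genes dpy-27 and dpy-30, and the male-promoting gene her-1. They were chosen by name from 19973 protein-coding genes. All peaks and relaxed calls were taken whose summit lay from 5 kb upstream of the gene start to 1 kb past the gene end, which is called the gene window below. That gave 10 of the 6626 peaks in the list thresholded on reproducibility, and 43 of the 30000 relaxed calls made on the pooled reads. The relaxed list of replicate 1 gave 42 of 30000 calls and that of replicate 2 gave 51 of 30000.

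The data came from chromatin immunoprecipitation and sequencing of whole worms at the second larval stage (L2), in 1 group of 2 biological replicates. The strain, OP339, has the genotype unc-119(ed3) III; wgIs339 and carries an integrated transgene for NHR-129 fused to eGFP, a green fluorescent protein used here as the tag. Animals of both sexes were pooled. The labels do not give the promoter that drives the transgene, and of the antibody they state only its target, nhr-129. A strain without the tag and the control library were not analysed here, so binding by NHR-129 and signal that does not need it cannot be told apart. Because males and hermaphrodites were pooled, a signal from one sex cannot be told from a signal of both.

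In this species sex follows from the ratio of X chromosomes to sets of autosomes. Proteins made from X-linked signal genes, among them the nuclear hormone receptor SEX-1 and the RNA-binding protein FOX-1, hold xol-1 low in XX embryos, while high xol-1 directs XO embryos to male development. Where xol-1 is low, SDC-2 with SDC-3 brings a condensin-like dosage compensation complex to both X chromosomes, which lowers their transcription, and the SDC proteins also repress her-1. The complex enters X at recruitment sites that hold copies of a short sequence motif, from which it spreads. These choices are made in the embryo, before the stage sampled here.

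The strongest call at any of the 9 genes lay far upstream of xol-1, and its sequence held the core of the X recruitment motif in inverted copies. The sequences below run from 100 bp before to 100 bp after thresholded summits, in ce11 and on the plus strand, taken from the RefSeq copy of the same assembly. They are shown for xol-1, because of these copies, and for sdc-1, sdc-2 and dpy-27, whose summits lie before their own starts. The summit 368 bp upstream of dpy-30 also lies before its own start. Its sequence is not shown and held no match to the sequences searched. Capitals mark matches on either strand to the 7 sequences searched, which are spelled out below.

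xol-1, chrX:8036306-8036506: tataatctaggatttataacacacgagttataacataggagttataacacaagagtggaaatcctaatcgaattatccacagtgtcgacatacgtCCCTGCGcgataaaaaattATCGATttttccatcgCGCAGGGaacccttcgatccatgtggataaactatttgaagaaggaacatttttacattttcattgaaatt

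sdc-1, chrX:16275350-16275550: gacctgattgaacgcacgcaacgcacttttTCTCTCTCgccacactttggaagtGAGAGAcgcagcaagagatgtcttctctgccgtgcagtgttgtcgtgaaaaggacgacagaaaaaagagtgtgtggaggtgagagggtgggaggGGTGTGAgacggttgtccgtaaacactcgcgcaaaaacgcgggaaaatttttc

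sdc-2, chrX:11522188-11522388: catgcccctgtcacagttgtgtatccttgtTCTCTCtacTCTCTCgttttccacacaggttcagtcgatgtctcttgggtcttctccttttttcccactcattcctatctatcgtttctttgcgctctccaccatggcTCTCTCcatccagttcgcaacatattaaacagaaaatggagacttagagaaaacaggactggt

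dpy-27, chrIII:3820259-3820459: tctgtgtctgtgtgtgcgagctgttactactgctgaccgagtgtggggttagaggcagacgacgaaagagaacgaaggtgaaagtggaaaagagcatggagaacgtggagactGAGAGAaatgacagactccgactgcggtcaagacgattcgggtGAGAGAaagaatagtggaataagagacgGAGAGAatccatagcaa

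Of the 9 genes, 7 had at least 1 thresholded summit in the gene window, against 40.8% of all coding genes. The exceptions were fox-1 and sdc-3. Larger windows catch more summits, and the median window was 12.7 kb for the 9 genes and 8.03 kb for all coding genes. Counted by length, the 9 windows held 8.69 thresholded summits per 100 kb, against 6.61 per 100 kb in the genome. Of the 5 genes on X, 4 had a summit, where 45.9% of X-linked coding genes did, and of the 4 autosomal genes 3 had a summit, where 40.0% of autosomal coding genes did. In the promoter window, which covers 1000 bp before the start and 100 bp after it, 4 of the 9 genes had a thresholded summit (sdc-1, sdc-2, dpy-27 and dpy-30), against 18.2% of coding genes. More than 1 summit was found in the windows of 3 genes, xol-1, sdc-1 and dpy-30, against 15.7% of coding genes with 2 or more. With members set by name and only 9 of them, these counts describe the genes and were not tested.

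**Figure D1:**
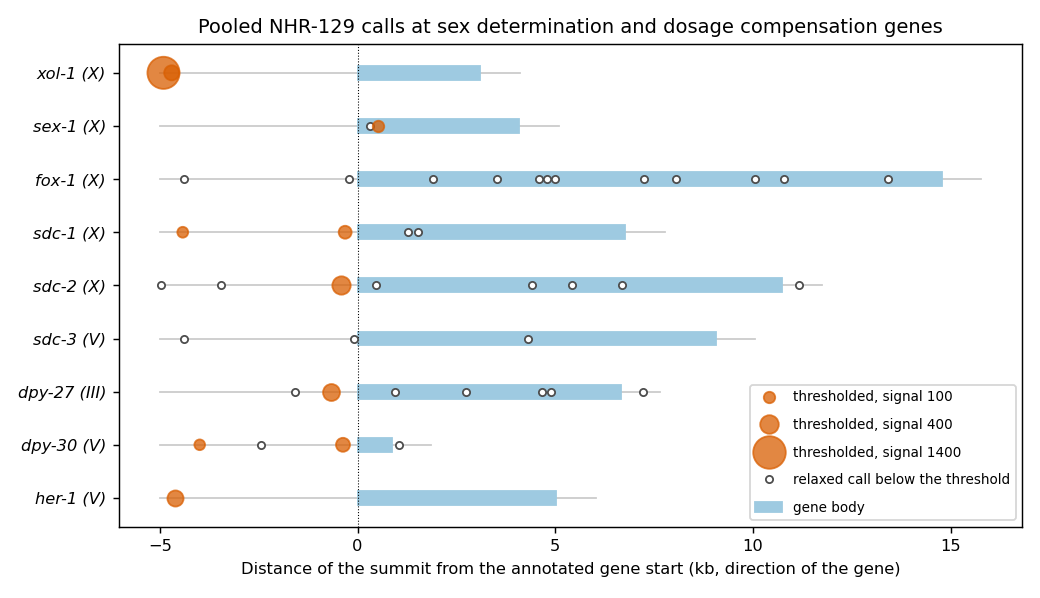
Summits of pooled calls along the 9 gene windows, with distance from the annotated start in kb on the horizontal axis and 1 gene per row, its chromosome in brackets. Filled circles are thresholded peaks with area growing with the authors' signal, open circles are relaxed calls below the threshold, and bars are gene bodies. The xol-1 and her-1 summits lie 4 to 5 kb upstream, those of sdc-2 and dpy-27 within 1 kb of the start, and fox-1 has 12 relaxed calls and no thresholded peak.

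The signal is a score set per peak by the authors' peak caller. No source used here states its scale, and pooled signals are larger than replicate signals, so ranks are given within a list. Replicate levels are set side by side as deposited, and their ratio is read against that of all peaks. In the thresholded list it ran from 63.4 to 6467 with a median of 122. The read depth behind a value is not given in the sources used here, so no counting error could be set beside it. The spread between replicates was therefore read from the replicate lists. Over 6593 thresholded peaks called in both, the log2 ratio of replicate 1 to replicate 2 had a median of 0.31 and an SD across peaks of 0.49. The ratio also holds any difference in scale between the lists.

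The switch gene xol-1 (WBGene00006962, X, 8041313 to 8044409, plus strand) encodes a protein that sets male fate and keeps dosage compensation off. Its main summit, 4907 bp upstream of the start at position 8036406, had a pooled signal of 1360.4 and ranked 22 of 6626. The 22 strongest summits, a cut set at the rank of this summit itself, fell in the windows of 0.21% of coding genes. The summit had a signal of 783 in replicate 1 (rank 19 of 30000) and 579 in replicate 2 (rank 25 of 30000), so it stood near the top of both lists. The log2 ratio of the replicates was 0.44, close to the median of all peaks.

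A second summit shared the same interval of 798 bp (8036125 to 8036922), 4700 bp upstream of the start at 8036613. Its pooled signal was 234 and its rank 1284. The nearest replicate summits had signals of 83.5 in replicate 1 and 172 in replicate 2, ranks 2547 and 501. The deposited signal of replicate 2 was the higher here, with a log2 ratio of replicate 1 to replicate 2 of -1.04. That is percentile 1.02 of the 6380 thresholded peaks with a summit of each replicate within 100 bp. The weaker summit lay 72 bp from the 3′ end of a tRNA gene (WBGene00022939, 8036685 to 8036757, minus strand), which overlaps the non-coding RNA gene C18A11.13. Many tRNA genes have near-identical copies elsewhere, so the placement of reads there is uncertain. Its part in this signal was not tested.

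The main xol-1 summit was intergenic with respect to coding genes. The tRNA gene WBGene00022939 and the non-coding RNA gene C18A11.13 lie 279 and 268 bp from it, within the same interval. The nearest coding start was that of xol-1 itself, and the next thresholded summit beyond the window lay 12066 bp upstream, in the promoter window of C34D10.1. A summit 4 to 5 kb upstream was found for 3 of the 9 genes, xol-1, her-1 and sdc-1, against 6.42% of coding genes. The limits of this band follow where these summits lie, so the 2 shares are a description and were not tested. The her-1 and sdc-1 summits in the band lie nearer to the starts of other coding genes. At the start of xol-1 the pooled list held no call. Replicate 1 had one 66 bp upstream, with a signal of 33.9 and rank 7181, and replicate 2 had none there, although its list reached down to a signal of 8.89.

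The letters CGCAGGG, the core of the X recruitment motif, occurred on both sides of the main summit. A minus-strand copy lay at 8036401 to 8036407, across the summit itself, and a plus-strand copy lay 35 bp further at 8036436 to 8036442. The copies point away from each other, and the ONECUT letters ATCGAT, a sequence read by homeodomain proteins of that class, lie between them at 8036420 to 8036425. Of all 6626 thresholded windows, 1.55% held CGCAGGG at least once, with 3.07% of the 1402 on X and 1.15% of those on autosomes. At least 2 copies were found in 5 windows, or 0.0755%, of which 4 were on X. The copies in the other 4 windows all lay in the same orientation as each other. No other thresholded summit of the 9 genes had CGCAGGG within 100 bp. These letters may occur with no recruitment of the complex, and NHR-129 is not known from these files to read them.

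**Figure D2:**
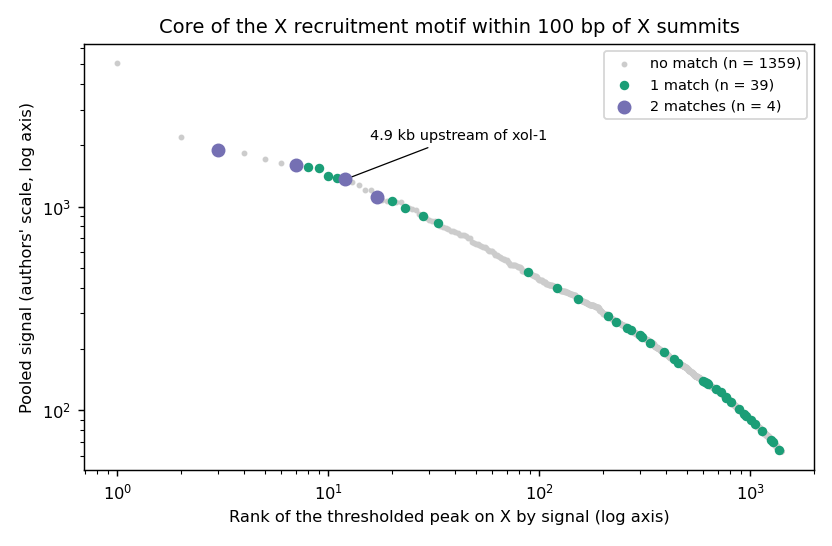
Thresholded peaks on X by rank of pooled signal (horizontal, log axis) and signal on the authors' scale (vertical, log axis), coloured by the number of copies of CGCAGGG within 100 bp of the summit. The peak upstream of xol-1 ranks 12 of 1402 on X and is among the 4 with 2 copies, all of which are within the strongest 50.

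The X-linked signal genes sex-1 and fox-1 carried weaker calls than the main xol-1 summit. The nuclear hormone receptor gene sex-1 (WBGene00004786, X, 10201329 to 10205421, minus strand) had 1 thresholded summit, 524 bp inside the gene in an intron. Its pooled signal was 102 (rank 4091), with 56.6 in replicate 1 and 47.3 in replicate 2, a log2 ratio of 0.26. The replicate ranks, 4143 and 3994, were close. No call of the pooled list fell upstream of sex-1. Replicate 2 alone had calls 183 bp and 1280 bp upstream, with signals of 10.8 and 11.4 near the bottom of its list.

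For fox-1 (WBGene00001484, X, 2445117 to 2459893, minus strand), whose product regulates splicing of xol-1 transcripts, no summit passed the threshold. The nearest thresholded summit lay 4791 bp outside its window, at gid-2, with a signal of 66.3. The window did hold 12 relaxed pooled calls, 9 of them in introns, 1 in a coding exon, 1 at the promoter and 1 intergenic. The strongest 3 were intronic, with signals of 55.2, 52.7 and 48.9 at 3528, 7243 and 4998 bp past the start. The highest, at rank 7553, lay below the lowest thresholded signal of 63.4. Of the 12, 4 had a summit of both replicates within 100 bp. The strongest had signals of 27.8 in replicate 1 and 25.3 in replicate 2, at ranks 8811 and 7824 of 30000.

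The sdc genes differed among themselves. The hermaphrodite-specific gene sdc-2 (WBGene00004746, X, 11522707 to 11533450, plus strand), which brings the dosage compensation complex to X, had the strongest promoter summit of the 9 genes. It lay 419 bp upstream with a pooled signal of 387 (rank 454). The signal was 209.6 in replicate 1 and 178 in replicate 2, with ranks of 481 and 456, and the log2 ratio was 0.24. Below the threshold the window held 7 pooled calls, the highest with a signal of 56.3 in the promoter window of the neighbouring gene hpo-34. Inside sdc-2 there were 4, all in coding exons, with signals up to 28.9.

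A zinc finger protein acting with SDC-2 is encoded by sdc-1 (WBGene00004745, X, 16275763 to 16282534, plus strand). Its promoter summit, 313 bp upstream, had a pooled signal of 152 (rank 2493), with 74.0 in replicate 1 and 76.9 in replicate 2. The log2 ratio of -0.06 was at percentile 20.1 of all peaks called in both replicates. A further summit 4420 bp upstream had a pooled signal of 82.9, with 48.2 in replicate 1 and 31.8 in replicate 2. This summit was inside a tRNA gene (WBGene00014388, 16271296 to 16271367, minus strand) and carries the same uncertainty about near-identical copies as the weaker summit at xol-1. The nearest coding start to it was that of ifa-3, which it preceded by 1274 bp.

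The third gene, sdc-3 (WBGene00004747, V, 15039148 to 15048207, minus strand), whose product acts in the complex and in her-1 repression, had no thresholded summit. The nearest was 11550 bp upstream of the start, in the shared promoter of mcm-3 and C25D7.15. It had 3 relaxed pooled calls, with signals of 29.1, 26.9 and 19.7. The call at the promoter, 90 bp upstream, was seen in replicate 1 with a signal of 18.6 and had no counterpart in replicate 2. All 3 signals were far below the threshold.

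Both dpy genes had promoter summits. The gene dpy-27 (WBGene00001086, III, 3813018 to 3819679, minus strand) encodes the SMC subunit that is particular to the dosage compensation condensin. Its summit, 680 bp upstream, had a pooled signal of 317 (rank 714), with 152 in replicate 1 and 164 in replicate 2. The log2 ratio of -0.10 was at percentile 17.5 of all peaks called in both replicates. Another 6 pooled calls in the window, with signals of 17.5 to 44.6, were below the threshold, and 4 of these lay in coding exons of the gene.

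The small protein DPY-30 belongs to the dosage compensation complex and also to the COMPASS complexes that methylate histone H3. Its gene (WBGene00001088, V, 12191519 to 12192385, plus strand) had a summit 368 bp upstream with a pooled signal of 191 (rank 1778). The signal was 114 in replicate 1 and 78.1 in replicate 2, a log2 ratio of 0.54. A weaker summit 3991 bp upstream, with a pooled signal of 77.6, lay 12 bp upstream of the start of the coding gene ZK863.8 and had 36.2 in replicate 1 and 35.3 in replicate 2.

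The gene her-1 (WBGene00001842, V, 9697015 to 9702035, plus strand) encodes a secreted protein that blocks the receptor TRA-2 and so permits male development. Its only thresholded summit, 4604 bp upstream, had a pooled signal of 279.7 (rank 934), with 141 in replicate 1 and 139.9 in replicate 2. The log2 ratio of 0.01 was at percentile 24.6 of all peaks called in both replicates. This summit lay 252 bp upstream of ztf-9 and 651 bp upstream of ZK287.7, which are divergent, and both genes lie nearer to it than her-1 does. The pooled list held no other call in the her-1 window. Replicate 2 alone had 3 more, at ranks 26009 to 28018 of 30000, the nearest of them 1481 bp upstream of the start.

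All 10 thresholded summits of the 9 genes overlapped a call in each replicate, and each also had a summit of each replicate within 100 bp. The list was selected on reproducibility, so such matches are no separate support for these genes. Of all 6626 thresholded peaks, 6593 overlapped a call in each replicate and 6380 had a summit of each within 100 bp. By overlapping calls the deposited signal of replicate 1 was higher at 8 of the 10. The median log2 ratio was 0.25, against 0.31 over all peaks. Both values use the call of the stronger xol-1 summit (0.44) for the weaker one too, whose own ratio was -1.04. The share of all peaks with replicate 1 higher was not counted. At 9 of the 10 a replicate summit within 100 bp gave the same ratio as the overlapping call, and the exception was the weaker xol-1 summit, where the overlapping call is that of its stronger neighbour.

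**Figure D3:**
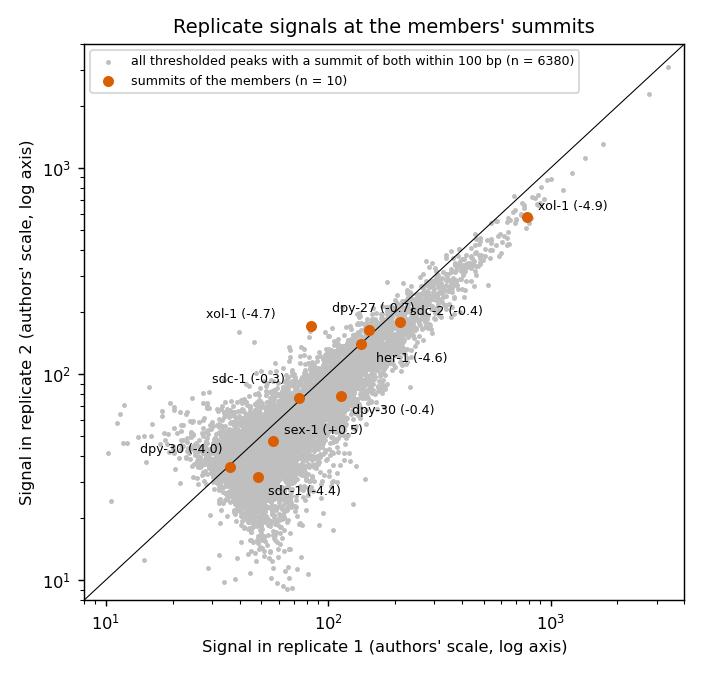
Signal in replicate 1 (horizontal) and replicate 2 (vertical), both on the authors' scale and log axes, at thresholded peaks with a summit of each replicate within 100 bp. Grey points are all 6380 such peaks, orange points are the 10 summits of the members with distance from the start in kb, and the line marks equal signals. The stronger xol-1 summit (783 and 579) stands near the top, and the weaker one (83.5 and 172) lies above most of the cloud.

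Below the threshold, pooled calls were present at 7 of the 9 genes, and at xol-1 and her-1 there were none. The share of all coding genes with such a call was not counted, so the 7 is a description only. Counting all relaxed calls, each of the 9 had at least 1 pooled relaxed call in its window, against 75.1% of coding genes. Each also had a relaxed call in replicate 1, against 76.6% of coding genes, and in replicate 2, against 79.0%. The pooled calls amounted to 37.4 per 100 kb, against 29.9 per 100 kb in the genome. Of the 33 pooled calls below the threshold, 33.3% had a summit of both replicates within 100 bp, close to the 32.8% of all 23374 such calls.

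Interval widths differed among the summits. Of the thresholded peaks, 21.5% were narrower than the commonest width of 370 bp, and these had a median signal of 292, against 103 for the rest. Among the 9 genes the narrow intervals were at sdc-2 (190 bp), dpy-27 (92 bp), her-1 (128 bp) and the promoter of dpy-30 (104 bp). The strongest summit, upstream of xol-1, was in the widest interval, the 798 bp one that holds both of its summits. The GC content of the windows of 100 bp on each side ran from 30.8% at the weaker xol-1 summit to 51.2% at the sdc-1 promoter, around a median of 42.8% over all thresholded peaks.

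The other sequences were searched in the same 10 windows. The nuclear receptor element AGGTCA was in 0 of the 10 windows and in 7.29% of all thresholded windows. The GATA letters GATAAG and the E-box CACGTG were also in 0 of the 10, against 10.1% and 8.92% of all windows. The T-box letters GGTGTGA were in 2 of the 10, at the sdc-1 promoter and at the dpy-30 summit 3991 bp upstream, against 2.05% of all windows. ATCGAT was in 1, the xol-1 window, against 8.80%. GAGAGA, added after the sequences had been seen, was in 5 of the 10, among them the dpy-27 and sdc-2 summits and both sdc-1 summits, which is close to the 44.0% of all windows. Overlapping copies of GAGAGA occurred, while matches of different motifs did not overlap in these 10 windows. A match is a run of letters and not a site of binding.

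Other genes of the same pathway were taken from 9 named lists, which hold 46 names, 8 of them among the 9 genes. Of the remaining 38, sex-2 was not matched in the annotation. Of the 37 others, 23 had a thresholded summit in the gene window and 12 had one in the promoter window, counts that are read against the same 40.8% and 18.2% of coding genes and were not tested. Their gene windows ran from 7.05 kb at egl-1 to 30.3 kb at tra-1, against a median of 8.03 kb for all coding genes. Larger windows catch more summits here too.

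The remaining subunits of the dosage compensation complex had summits in 4 of 5 cases. The strongest, with a pooled signal of 1282 and rank 28, lay 3862 bp upstream of dpy-28, which encodes a condensin subunit, but 38 bp upstream of tasp-1. It had signals of 675 in replicate 1 and 609.8 in replicate 2. At dpy-21, which encodes a histone H4 lysine demethylase, the strongest summit (432) was in the promoter window of Y59A8B.24. The kleisin gene dpy-26 had a summit 88 bp upstream (279.7), and mix-1, for an SMC protein shared with mitotic condensins, had one in the promoter window (117) and a stronger one of 341 within the gene. No thresholded summit was found at capg-1, where the highest pooled signal was 46.3. At dpy-28, dpy-21 and mix-1 the start of another coding gene lay nearer to the strongest summit.

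Among the dose signals, the X-linked ONECUT gene ceh-39 had 3 thresholded summits, one in the promoter window (181) and the strongest 2688 bp upstream (188). That strongest summit lay nearer to the start of T26C11.8. The autosomal gene sea-2 had 4, the strongest of 185 lying 8539 bp inside the gene, whereas the T-box gene sea-1 had no pooled call. Downstream of her-1, 5 of 7 genes had a summit. They were tra-2 (179.5), tra-3 (176), fem-3 (160.5), cul-2 (92.2) and fem-1 (78.8). Only that of fem-1, 29 bp upstream, was in the gene's own promoter window, and it was also in that of drp-1. The tra-2 summit lay in the promoter window of eif-2Bgamma, and the cul-2 summit in that of dyf-2. The fem-3 summit lay nearer to the start of aly-1. The transcription factor gene tra-1, at the end of this cascade, had relaxed calls up to 36.9 and no thresholded summit.

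Genes of germline sex and targets of TRA-1 had few. Of 5 germline genes only laf-1 had a thresholded summit (198), and it lay in the promoter window of swsn-3. Of 4 targets of TRA-1, mab-3, dmd-3, egl-1 and ceh-30, none had one, and the highest relaxed pooled signal among them was 56.5, at mab-3.

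Chromatin partners of the complex were also searched. Among 7 COMPASS partners of DPY-30, 5 had a summit, in the promoter window at set-16 (462), utx-1 (102) and wdr-5.1 (82.1), and elsewhere in the window at ash-2 (106) and cfp-1 (72.7). All 4 genes of other condensins had one, in the promoter window of smc-4 (175), kle-2 (155) and hcp-6 (132) and 2240 bp upstream of capg-2 (112). The histone H4 methyltransferase genes set-4 (529) and set-1 (84.6) each had a summit in the promoter window, and set-1 a stronger one (403) in that of jhdm-1. Several of these are shared. The summit of smc-4 lies nearer to F35G12.7, that of hcp-6 to let-630, that of kle-2 to C29E4.12 and that of set-16 to drr-2. The named summits of capg-2, ash-2 and cfp-1 also lie nearer to other coding starts, those of twk-24, Y17G7B.20 and F52B11.2.

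**Figure D4:**
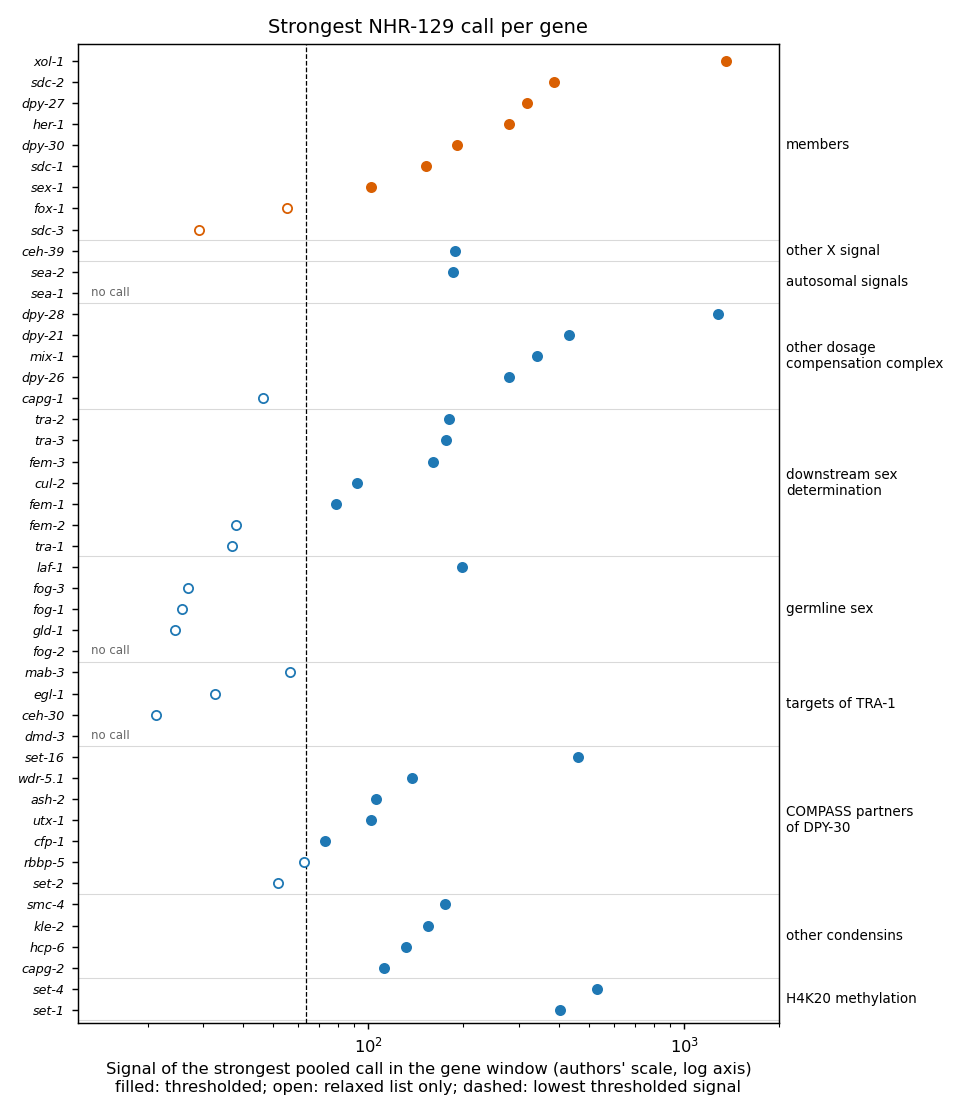
Signal of the strongest pooled call in the gene window for the 9 members (orange) and 37 other genes of the pathway lists (blue), on the authors' scale and a log axis, 1 gene per row. Filled points are thresholded, open points are relaxed calls only, and the dashed line is the lowest thresholded signal, 63.4. The summit upstream of xol-1 (1360.4) and that upstream of dpy-28 (1282) lie above all others shown.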

How the data were processed

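Chromatin was immunoprecipitated and sequenced from 2 biological replicates, and peak lists were deposited, with library fragments of 150 to 350 bp per the labels. Per the deposited file descriptions, the authors called relaxed lists on each replicate and on the pooled reads, each with a control, and selected the thresholded list from these on the irreproducible discovery rate. No source used here gives the aligner, peak caller, threshold or depths. The signal value and the −log10 q-value per peak are the authors' own, and every thresholded peak carries the largest −log10 q of the pooled list, 4.15. The ce11 lists were used. Those in ce10 were not, since the annotation is WBcel235 (Ensembl release 115), the same assembly as ce11.

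Coordinates are 1-based. A summit was placed at the start plus the deposited offset, and ranks are by signal. Replicate calls were matched to the strongest call sharing 1 bp or more, or by a summit within 100 bp. No statistical test was made, since there was 1 group. Sequence motifs were searched on both strands within 100 bp of the summit. The genes, lists and motifs were chosen with earlier results of these data known. Named were the 9 genes, every listed gene with a thresholded promoter summit, otherwise up to 3 per list with the strongest, and the genes nearest to the members' summits. Any other gene is named to complete a count or to place a summit, and was chosen after its values were seen. The sequence at 1 summit is not reported here. Window counting and call matching were tested on simulated data against direct counts. Computation used Python 3.11.15, numpy 2.4.6, pandas 2.3.3 and matplotlib 3.10.9.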

Additional observations from a re-analysis of the deposited data

How the results depend on the processing

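Of the values recomputed under alternatives, 38 stayed within 1.5 times the value given (ratios, within the spread of replicates), 11 moved further and 1 reversed. With the 1000 strongest peaks, 4 genes kept a summit in the gene window, with 4 summits, 2 genes kept one in the promoter window, 7 other pathway genes had one, and 1905 coding genes did. With the stronger 3313 peaks 5169 coding genes had a summit, against 8150 with all. With gene bodies alone, 1 of the 9 genes had a summit (1 summit), as did 6 other pathway genes and 1563 coding genes. With windows from 2 kb upstream to the gene end, 5 summits and 5 genes were left, without xol-1 and her-1, as were 17 other pathway genes and 5589 coding genes. From replicate 1 alone, as many calls as there are thresholded peaks gave 7 genes and 9 summits, beside 8075 coding genes, and from replicate 2 alone 7 genes and 11 summits, beside 8123 coding genes. Matching by summit turned the replicate difference at the weaker xol-1 summit from 0.44 to -1.04 on the log2 scale, because the overlapping call belongs to the stronger summit. No paired analysis was possible because there was 1 group. Depth is unknown, so absence from the thresholded list sets no upper limit on binding at fox-1 or sdc-3.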

Other observations

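Among the 1402 thresholded peaks on X, CGCAGGG was within 100 bp of the summit in 12 of the 50 strongest (24.0%) and in 31 of the other 1352 (2.29%), a count made after the xol-1 window had been seen and not tested. The 4 X peaks with 2 copies, that of xol-1 included, had a median signal of 1485 on the pooled scale, against 124 for the 1359 X peaks with none. Their ranks over the genome were 7, 11, 22 and 36.

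Just outside the windows, the nearest thresholded summits were 438 bp beyond the window of dpy-27 (signal 91.6, intergenic) and 1109 bp beyond that of her-1 (signal 92.3, in the promoter window of rbx-1). For the other 7 genes the nearest lay 2150 to 7066 bp beyond the window.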
